A study of Mus musculus with 4 samples.

Results

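The accessible chromatin around 10 genes of cartilage matrix turnover was followed in mouse chondrocytes. The genes were the ADAMTS proteases Adamts1, Adamts4, Adamts5 and Adamts9, the gelatinases Mmp2 and Mmp9, the membrane metalloproteinase Mmp14 and the inhibitors Timp1, Timp2 and Timp3. They were chosen by name as 10 of 21883 protein-coding genes, and each ATAC-seq peak in the gene or within 50 kb of it was counted to its window. ATAC-seq measures where a transposase can enter chromatin, and a peak is a stretch where the inserted tags exceed the local background. The chondrocytes were from knees of C57BL/6 mice, taken at postnatal days 0 to 4. In the P0 group, 2 libraries were made from primary cells kept in culture for less than a day, and in the P8 group 2 libraries were made at passage 8, from cells passaged at every doubling of their number. No genotype or drug separated the groups, the sex of the mice and the number pooled were not given in the sources used here, and both groups were cultured cells rather than tissue. Nothing stated that the libraries of a group came from separate cultures or animals, so the spread between them may be technical, and neither peaks nor genes are replicates.

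Aggrecan, the large proteoglycan that gives cartilage its resistance to load, is cut by ADAMTS4 and ADAMTS5, the main aggrecanases, while ADAMTS1 and ADAMTS9 cut versican and, less efficiently, aggrecan. MMP2 and MMP9 digest denatured collagen, and MMP14 is anchored in the cell membrane, where it cleaves collagen and, with TIMP2 as an adaptor, activates the MMP2 proenzyme. TIMPs bind the active site of metalloproteinases, and TIMP3, which is held in the matrix, is also the main inhibitor of the aggrecanases.

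The number of peaks on the assembled chromosomes ranged from 118849 to 144356 in the P0 libraries and from 88578 to 98647 in the P8 libraries, a mean P0/P8 ratio of 1.41. The tag level that the peak caller expected at a position without local enrichment was between 1.18 and 1.42 at P0 and between 0.979 and 1.02 at P8, so this level was higher in both P0 libraries. With all peaks rescored at the lowest of these levels, the ratio of all peaks was 1.30 and that of the 10 windows 1.23. Peaks in the genes of 7 chondrocyte markers with 1 kb on either side numbered 52 and 45 at P0 and 35 and 49 at P8, and Acan, Col9a1, Col11a2 and Matn3, the markers with a known start, had a peak at it in all 4 libraries. The same sums were 21, 17, 19 and 15 for 5 fibroblast markers, 13, 8, 4 and 6 for 4 macrophage and blood markers, 13, 9, 5 and 9 for 3 endothelial markers and 4, 3, 1 and 2 for 3 muscle markers. Within the chondrocyte list, both P0 libraries had more peaks than both P8 at Acan, Comp and Sox9, and fewer at Col2a1. The fibroblast marker Col3a1 and the endothelial marker Kdr also had a peak at their start in all 4 libraries. Pdgfra and Cd68 had a start peak in the P0 libraries only, and Dpt, Ptprc, Myf5 and Acta1 had none at their known starts. Cd68 was without a peak in both P8 libraries and Adgre1 in 3 of the 4 libraries. The part of such cells in the results was not tested, and in bulk libraries a change in the share of open cells and a change in openness per cell cannot be told apart.

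Start sequences were given for 6 of the 10 genes in the RefSeq table of GRCm38.p6, and those of Adamts1, Adamts9, Timp3 and Timp1 are printed because the first 3 carried a site over the start that was lower at P8 and Timp1 one that did not pass the test. Each line gives the 250 bases before the start on the gene's own strand, 5′ to 3′. Capitals mark the letters GGGCGG, known as the GC box that Sp1 binds, and those of the TATA box, whose letters were taken as TATAAA, and both were searched on either strand.
Adamts1, chr16:85803114-85803363, minus strand: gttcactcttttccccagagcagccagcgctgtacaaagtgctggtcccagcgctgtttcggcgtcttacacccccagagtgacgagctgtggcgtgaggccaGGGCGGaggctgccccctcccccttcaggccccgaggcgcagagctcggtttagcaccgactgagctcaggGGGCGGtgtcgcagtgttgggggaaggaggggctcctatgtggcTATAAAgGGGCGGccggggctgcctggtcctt
Adamts9, chr6:92943535-92943784, minus strand: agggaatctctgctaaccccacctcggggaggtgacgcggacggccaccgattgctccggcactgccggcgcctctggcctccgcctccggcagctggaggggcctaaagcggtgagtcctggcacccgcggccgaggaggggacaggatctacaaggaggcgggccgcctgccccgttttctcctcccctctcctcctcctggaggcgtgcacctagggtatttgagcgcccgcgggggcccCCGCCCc
Timp3, chr10:86300162-86300411, plus strand: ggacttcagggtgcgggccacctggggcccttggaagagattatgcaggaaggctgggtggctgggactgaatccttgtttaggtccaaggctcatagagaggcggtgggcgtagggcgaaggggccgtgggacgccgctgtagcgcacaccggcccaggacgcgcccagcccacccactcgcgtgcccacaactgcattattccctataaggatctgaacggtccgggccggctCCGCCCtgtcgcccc
Timp1, chrX:20869916-20870165, plus strand: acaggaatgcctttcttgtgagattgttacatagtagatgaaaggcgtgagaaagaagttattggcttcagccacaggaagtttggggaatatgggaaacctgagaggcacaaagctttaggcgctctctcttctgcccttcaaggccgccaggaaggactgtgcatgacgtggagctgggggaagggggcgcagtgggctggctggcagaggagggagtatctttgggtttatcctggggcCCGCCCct

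All 4 stretches held a GC box, as did 32.7% of the 32851 promoter entries of the table, and Adamts1 held 3 of them, the last of which followed a TATA box that began 32 bases before the start. A TATA box was present in 12.4% of all entries and in none of the other 5 members with an entry. The GC content was 65.6% for Adamts1, 71.2% for Adamts9, 65.6% for Timp3, 68.0% for Timp2, 55.2% for Mmp14 and 54.4% for Timp1, against a median of 52.4% over all entries. The letters TGACTCA of an AP-1 site, on either strand, were found in 4.46% of all entries and in none of the 6, and CCAAT occurred in Mmp14, Timp1 and Timp2 and in 33.8% of all entries. A single AACAAT, the core bound by Sox factors, stood in Timp1, and 9.42% of all entries held one. In Mmp14, 1 of 2 CCAAT matches shared a base with a GC box, and no other matches within these 6 promoters overlapped. At these stretches the peak covered all 250 bases of Adamts9 in 3 libraries and 245 in P8 library B, but only 111, 39, 1 and 9 bases of Timp3 in P0 library A, P0 library B, P8 library A and P8 library B, since the Timp3 peak lay mostly downstream of the start.

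In the 10 windows, P0 library A had 179 peaks, P0 library B 149, P8 library A 118 and P8 library B 138. Both P0 libraries were above both P8 libraries, with means of 164 ± 21.2 and 128 ± 14.1 (SD, n = 2) and a ratio of 1.28 ± 0.218 (SD), and the two-sided exact permutation p was 0.333, the smallest that 2 against 2 libraries can give. The ratio over the windows was thus below the 1.41 of all peaks, and it was 1.29 with windows of 10 kb and 1.27 with windows of 100 kb. With only the peaks whose nearest gene was a member, the ratio was 1.41, like that of all peaks. Per 100000 peaks of its library the 50 kb windows held 124 and 125 peaks at P0 and 133 and 140 at P8. With the same number of top-scoring peaks from each library, the ratio over the windows was 0.947 ± 0.0571 (SD).

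Bases under peaks in the windows numbered 55220 and 45745 at P0 and 29950 and 36267 at P8, a ratio of 1.52 ± 0.289 (SD, exact permutation p = 0.333). All 10 genes had more bases under peaks in both P0 than in both P8 libraries, and 85.9% of all protein-coding genes with a peak did so too. No member had the opposite order, which held for 1.86% of all genes. The median peak was 247 and 244 bp long at P0 and 200.5 and 219.5 bp at P8. Over each library's own window peaks, the median fold enrichment (summit tags over local background) was 4.97 for P0 library A and 5.09 for P0 library B. P8 library A had 5.01 and P8 library B 5.11, so these medians were alike (exact permutation p = 0.667). They compare different sets of peaks, however. At the 83 merged sites with a peak in all 4 libraries, described below, the median log2 difference in fold enrichment, P8 minus P0, was -0.21. Over all such sites of the genome it was -0.18. By limma, 8 of the 83 were lower at P8 and 0 higher at an adjusted p under 0.05. Of all 55294 such sites, 6778 were lower and 619 higher.

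**Figure D1:**
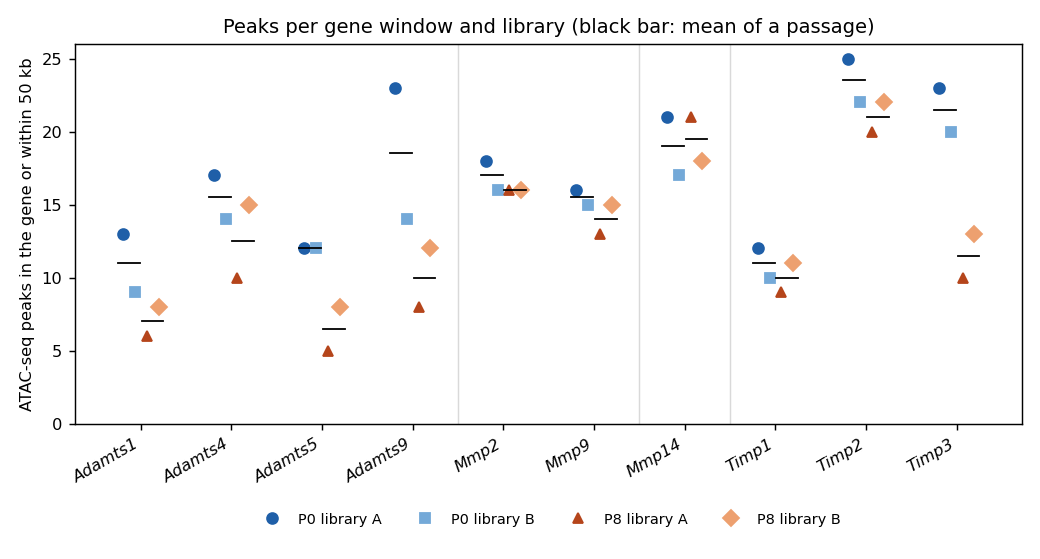
ATAC-seq peaks in each gene or within 50 kb of it (y axis, number of peaks) for the 10 genes (x axis), with a symbol for each of the 4 libraries and a black bar at the mean of the 2 libraries of a passage. The Timp3, Adamts1, Adamts5 and Adamts9 windows have both P0 symbols above both P8 symbols, while those of Mmp14 and Mmp2 overlap.

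Gene by gene, the lower P0 library exceeded the higher P8 library in peak number in 4 of the 10 windows, those of Adamts1, Adamts5, Adamts9 and Timp3, against 48.3% of all genes with a peak. The opposite order was seen in none of the 10 and in 3.95% of all genes. Timp3 had the largest ratio, with 23 and 20 peaks at P0 and 10 and 13 at P8 (ratio 1.87). Its window was followed by Adamts9, with 23 and 14 peaks against 8 and 12, and by Adamts5, with 12 and 12 against 5 and 8. Adamts1 had 13 and 9 peaks at P0 and 6 and 8 at P8.

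In the other 6 windows the passages overlapped. Adamts4, the other classical aggrecanase beside Adamts5, had 17 and 14 peaks at P0 and 10 and 15 at P8. Mmp14 had 21 and 17 against 21 and 18, Mmp2 18 and 16 against 16 and 16, and Mmp9 16 and 15 against 13 and 15. Timp2, the window with the most peaks, had 25 and 22 against 20 and 22, and Timp1 12 and 10 against 9 and 11. The ratio of Timp3 (1 added to both means) lay at the 88.7th percentile of all genes with a peak, that of Adamts9 at the 87.7th, that of Adamts5 at the 86.3rd and that of Mmp14 at the 15.4th. The exact permutation p was 0.333 or higher for each gene.

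Peaks of the 4 libraries that overlapped by at least 1 bp were merged into 201 sites in the windows, of 170558 sites in all. Of the 201, 83 were open in all 4 libraries (41.3%, against 32.4% of all sites), 24 had a peak in both P0 and no P8 library (11.9%, against 17.1%) and 3 in both P8 and no P0 library (1.49%, against 1.82%). A further 36 sites had a peak in 1 P0 library only (17.9%, against 23.2% of all sites). Another 12 had one in 1 P8 library only (5.97%, against 9.84%) and 43 in another combination (21.4%, against 15.6%). Within a window, 72 sites lay in the gene itself or within 1 kb of its start or ends, and 32 lay at the start of another protein-coding gene, 19 of these open in all 4 libraries. One site, in 1 P0 library only, was shared by the neighbouring Adamts1 and Adamts5 windows on chromosome 16. A library without a peak is one below the caller's threshold, not one without tags.

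**Figure D2:**
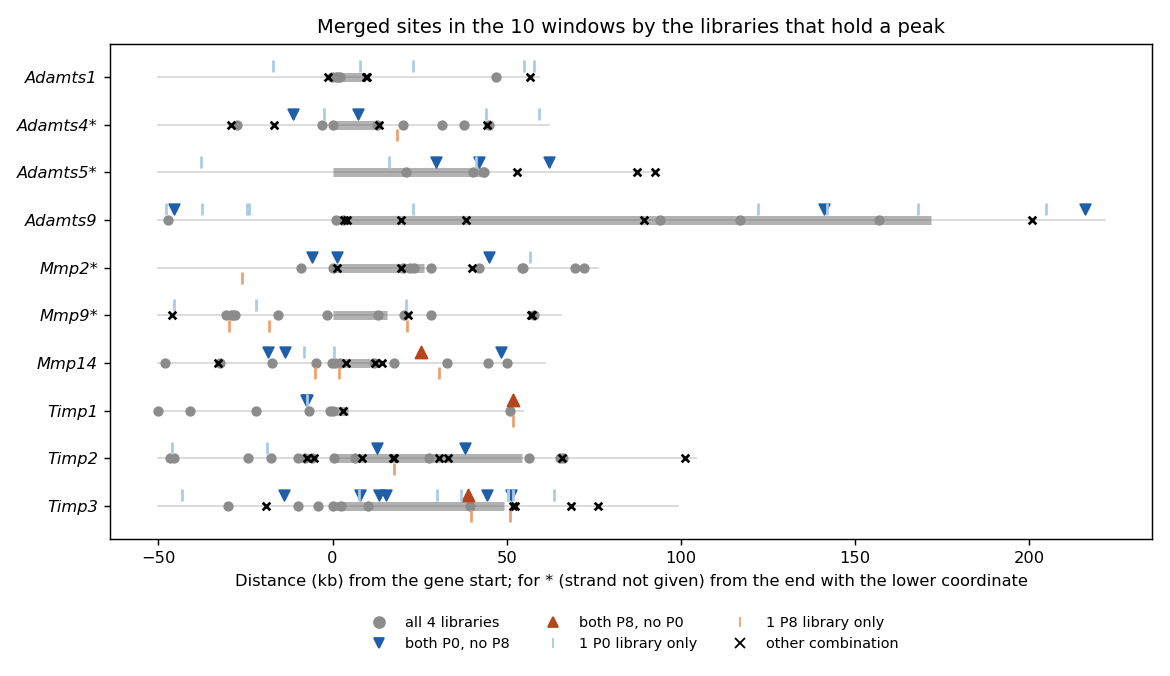
Merged sites of the 10 windows by distance in kb from the gene start (x axis, or from the end with the lower coordinate for the 4 genes marked with a star, whose strand was not given), with the gene as a thick grey bar and its window as a thin line, and with colour and shape for the libraries that hold a peak. Sites open in all 4 libraries lie at 9 of the 10 gene starts or ends, the 24 sites of both P0 and no P8 library are most frequent at Timp3 with 6, and the 3 sites of both P8 and no P0 library lie at Mmp14, Timp1 and Timp3.

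Within 1 kb of the start, or of either end for the 4 genes whose strand was not given (Adamts4, Adamts5, Mmp2 and Mmp9), 9 of the 10 genes had a peak in all 4 libraries. All 6 genes with a known start did so, against 59.8% of 17491 genes with a start in the table. Adamts4, Adamts5 and Mmp2 were counted through either end, for which there is no such share. The exception among the 10 was Mmp9, with 0 peaks there in each library. Its nearest site, chr2:164938663-164938969, lay within 3 kb of the lower-coordinate end and was open in all 4 libraries.

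Differences in height were examined at the sites open in all 4 libraries, where the summit pileup (tags over the highest point of the peak) was scaled between libraries by the median ratio over all such sites and compared on the log2(scaled pileup + 1) scale by limma with Benjamini-Hochberg adjustment over 55294 sites. Of the 83 sites of the windows, 11 were lower and 4 higher at P8 at an adjusted p under 0.05, against 9.51% lower and 12.1% higher of all sites. Both P0 libraries were above both P8 libraries at 24 of the 83 sites (30.8% of all sites), both P8 above both P0 at 16 (30.6% of all sites), and the passages overlapped at 43. The median difference was -0.03 over the 83 sites and -0.01 over all sites. The split depended on the scaling. When libraries were scaled by their median pileup, 41 sites were lower and 0 higher, against 24556 and 1472 of all 55294 sites. On fold enrichment 8 were lower and 0 higher, against 6778 and 619 of all sites. By genome background 19 were lower and 1 higher, against 11820 and 2643. These settings moved the median of all sites to -0.40, -0.18 and -0.24. At an unadjusted limma p under 0.05, 0 sites were higher by median pileup and 5 on fold enrichment, against 2168 and 2318 of all sites. Leaving out P0 library A left 0 limma calls among all sites of the genome (in the windows, 13 lower and 8 higher at an unadjusted p under 0.05), and leaving out P0 library B left 3 lower (the Adamts9 start, a site near Mmp9 and one upstream of Timp1) and 1 higher (at the end of Adamts4).

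**Figure D3:**
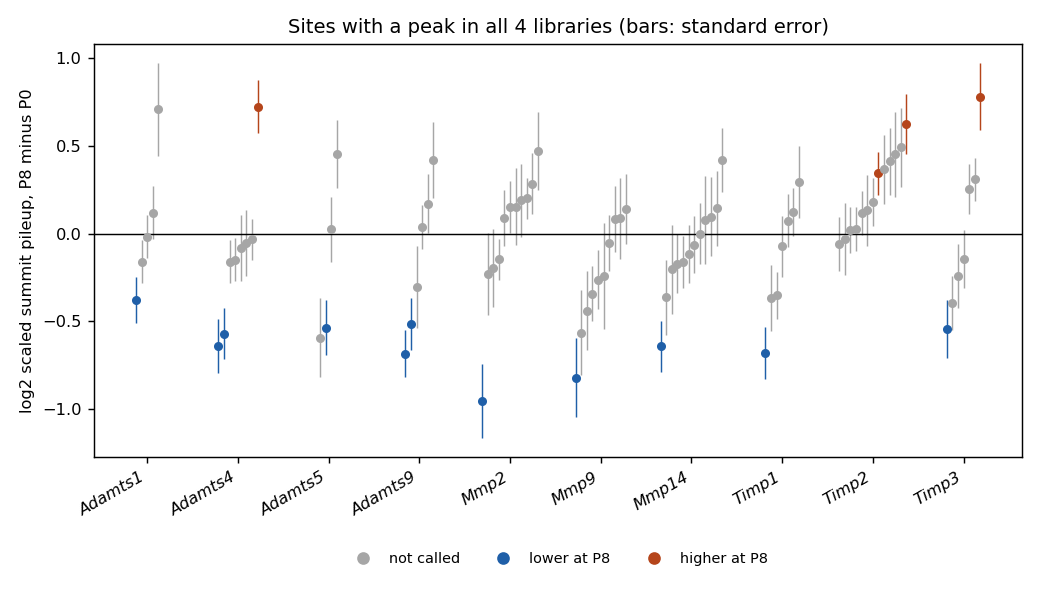
The log2 difference in scaled summit pileup, P8 minus P0 (y axis), at the 83 sites open in all 4 libraries, grouped by gene (x axis) and sorted within it, with bars for the standard error and colour for the limma call at an adjusted p under 0.05. The 11 sites called lower lie in 9 windows and the 4 called higher in those of Adamts4, Timp2 and Timp3, and 68 sites are not called.

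Among the ADAMTS proteases, the start of Adamts1 (site chr16:85802945-85803397) had a scaled summit pileup of 43.0 and 45.6 in the P0 libraries and 33.8 and 33.8 in the P8 libraries. It was lower at P8 by a log2 difference of -0.38 ± 0.13 (SE, limma adjusted p = 0.0399), without overlap of the passages. The call was lost when any 1 of the 4 libraries was left out, and on fold enrichment the difference was -0.09 (adjusted p = 0.662). A second site within 1 kb of that start, 805 bp into the gene, had 30.4 and 26.3 against 32.5 and 29.2 and did not pass the test (0.12, adjusted p = 0.613). The site of highest fold enrichment lay 46610 bp downstream of the start, with fold enrichments of 9.93 and 4.58 at P0 and 8.41 and 8.59 at P8. Its difference in pileup of 0.71 missed the threshold (adjusted p = 0.0603), and P0 library B was the lowest of the 4 there. No Adamts1 site was open in both libraries of one passage and none of the other.

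The start of Adamts9, the longest gene of the group at 171752 bp, had the largest decline of the 6 known starts. Site chr6:92943022-92943915 had 43.7 and 46.4 scaled tags at P0 and 27.3 and 28.0 at P8, a difference of -0.69 ± 0.13 (SE, adjusted p = 0.00133). It passed without P0 library B but not on fold enrichment (-0.44, adjusted p = 0.0864). A site 47821 bp upstream (chr6:92991355-92991951) was lower too, with 36.3 and 35.0 against 26.0 and 23.3 (-0.52, adjusted p = 0.0160), and on fold enrichment it had -0.32 (adjusted p = 0.125). The Adamts9 site of highest fold enrichment, 92831 bp inside the gene, did not pass, with 23.7 and 26.3 against 32.5 and 24.5 (adjusted p = 0.502). Adamts9 also had 3 sites with a peak in both P0 and no P8 library, 1 downstream, 1 in the gene body and 1 upstream, with fold enrichments from 4.36 to 7.45.

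Adamts5, the principal aggrecanase of mouse cartilage, had 13 sites, 4 of them open in all 4 libraries. A site in the gene body, chr16:85898306-85898843, had 31.1 and 34.2 scaled tags at P0 and 23.4 and 21.0 at P8 and was lower by -0.54 ± 0.16 (SE, adjusted p = 0.0184). It did not pass on fold enrichment (-0.40, adjusted p = 0.122) or without either P0 library (adjusted p = 0.186 and 0.251). Both sites at the higher-coordinate end of the gene, by contrast, had 20.02 and 23.7 against 24.7 and 19.8 and 17.8 and 16.6 against 27.3 and 21.0, and did not pass (adjusted p = 0.944 and 0.101). The site of highest fold enrichment, also in the body (chr16:85879151-85879480), had fold enrichments of 9.90 and 13.3 at P0 and 6.43 and 5.56 at P8, and its pileup difference of -0.59 had an adjusted p of 0.0640. There were 3 sites with a peak in both P0 and no P8 library, 1 in the body with fold enrichments of 8.28 and 3.20, 1 near the higher-coordinate end with 3.30 and 3.44, and 1 in the flank beyond it with 5.38 and 5.95.

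Adamts4 lies on chromosome 1 among closely spaced genes, and only 3 of its 18 sites lay in the gene or within 1 kb of its ends. One of them, chr1:171262635-171263314 at the higher-coordinate end, went the other way from the Adamts1 and Adamts9 starts, with 24.5 and 21.0 scaled tags at P0 and 39.0 and 37.4 at P8 (0.73 ± 0.15, SE, adjusted p = 0.00192). Its sign held under each scaling run, but it did not pass when scaled by median pileup (0.33) or on fold enrichment (0.19). The site at the lower-coordinate end had 20.02 and 21.9 against 20.8 and 18.7 (adjusted p = 0.792). The lower sites of the window lay at the starts of B4galt3, a galactosyltransferase gene, with -0.57 (adjusted p = 0.00747), and of Usp21, a ubiquitin protease gene, with -0.64 (adjusted p = 0.00526). At the site of highest fold enrichment, over the start of Apoa2, the pileup was 53.4 and 62.2 against 49.4 and 53.7 (adjusted p = 0.373). A peak in both P0 and no P8 library was found inside Adamts4, with fold enrichments of 5.07 and 4.12.

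For the gelatinases, no site in Mmp2 itself or at its ends passed the test. The site at its lower-coordinate end, chr8:92827180-92827795, had 25.2 and 22.8 scaled tags at P0 and 24.7 and 35.0 at P8 (0.29 ± 0.17, SE, adjusted p = 0.252), and the 3 sites in its body that were open in all 4 libraries had adjusted p from 0.226 to 0.494. The site with the highest fold enrichment in any library, chr8:92818149-92818569 in the flank, had 10.4 and 13.3 at P0 and 9.49 and 10.4 at P8 and a difference in pileup of 0.09 (adjusted p = 0.740). The one site that was lower lay inside the neighbouring Lpcat2, chr8:92899391-92899800, with 24.5 and 31.5 against 11.7 and 16.3 (-0.96 ± 0.21, SE, adjusted p = 0.00292). In size it was the largest of the 83 differences. Peaks in both P0 and no P8 library occurred once in the body, with fold enrichments of 4.31 and 4.68, and once in either flank, with 5.22 and 4.81 and with 4.55 and 5.03.

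Mmp9 had a single site in its gene body, chr2:164953226-164953569, which had the highest fold enrichment of its window, with 12.6 and 10.0 at P0 and 9.34 and 8.22 at P8. Its scaled pileup of 23.7 and 19.3 against 26.0 and 19.8 overlapped between the passages (0.08, adjusted p = 0.794). The site nearest to the lower-coordinate end, named above, had 22.2 and 16.6 against 10.4 and 10.5 and was lower by -0.82 ± 0.23 (SE, adjusted p = 0.0130). Among the 20 sites of the window, 10 were open in all 4 libraries, mostly at Zfp335 and Slc12a5, and 0 were in both libraries of one passage and none of the other.

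Mmp14, the activator of the Mmp2 proenzyme, showed no difference at its start that passed the test. Site chr14:54431338-54431746 had 37.1 and 38.5 scaled tags at P0 and 28.6 and 39.7 at P8 (-0.16 ± 0.15, SE, adjusted p = 0.474), with P8 library B above both P0 libraries and P8 library A below them. The next site, 555 bp into the gene, had 27.4 and 25.4 against 26.0 and 24.5 (adjusted p = 0.819). The site of highest fold enrichment in the window covered the start of Lrp10, a lipoprotein receptor gene, and was lower, with 37.1 and 42.9 against 24.7 and 25.7 (-0.64 ± 0.14, SE, adjusted p = 0.0034). A site 25337 bp downstream of the start, chr14:54456935-54457177, had a peak in both P8 and no P0 library, with fold enrichments of 9.20 and 6.57, the highest of the 3 such sites. The 3 sites with a peak in both P0 and no P8 library lay in Slc7a7, at its start and in Rem2, with fold enrichments from 4.11 to 7.47.

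**Figure D4:**
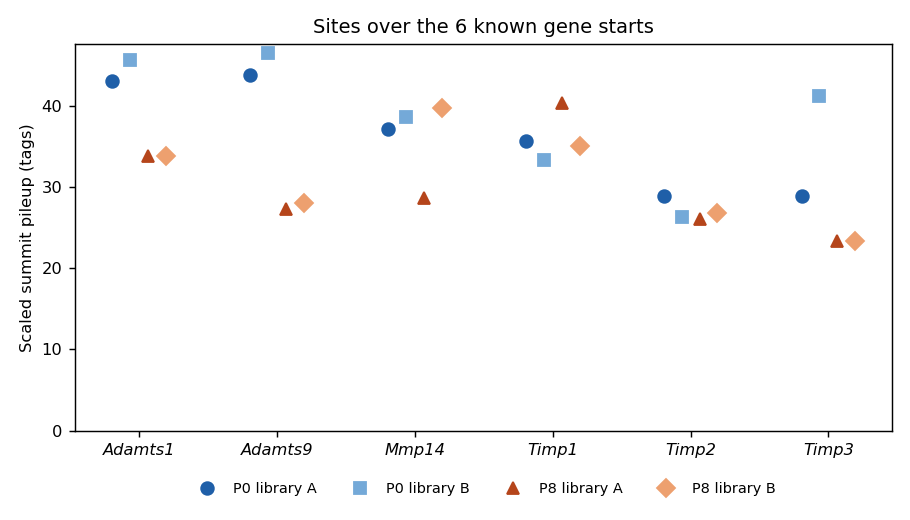
Scaled summit pileup (y axis, tags) at the sites over the 6 known gene starts (x axis), with a symbol for each library. The P0 symbols lie above the P8 symbols at Adamts1, Adamts9 and Timp3, from 28.9 to 46.4 against 23.3 to 33.8, and the passages overlap at Mmp14, Timp1 and Timp2.

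The inhibitors differed in which of their sites passed the test. At the start of Timp3 (chr10:86300301-86300811) P0 libraries had a scaled pileup of 28.9 and 41.2 and P8 libraries of 23.4 and 23.3, lower by -0.54 ± 0.17 (SE, adjusted p = 0.0237). Without P0 library B the difference was -0.30 and did not pass (adjusted p = 0.516), nor did it on fold enrichment (-0.24, adjusted p = 0.351). A site 29596 bp upstream, chr10:86270245-86270816, inside Syn3, the gene in which Timp3 is nested, had the highest fold enrichment of the window, and its scaled pileup was higher at P8, with 15.6 and 15.8 against 31.2 and 24.5 (0.78 ± 0.19, SE, adjusted p = 0.00607). It kept its sign but did not pass when scaled by genome background (0.55, adjusted p = 0.0593), by median pileup (0.39) or on fold enrichment (0.28), nor without P8 library A (adjusted p = 0.0658) or P0 library B (adjusted p = 0.0515).

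Timp3 also had the most sites with a peak in both P0 and no P8 library, 6 of its 29. One, chr10:86286360-86286863, lay 13549 bp upstream with fold enrichments of 6.00 and 6.17, while 4 lay in the gene body and 1 just beyond it, with fold enrichments from 2.22 to 3.43 and 26 to 42 tags at the summit. The low fold enrichments at these tag counts went with a high local background, which at the peaks of the gene body had a median of 9.15 and 8.49 times the baseline of the library at P0 and 5.69 and 6.08 times at P8. A site at chr10:86339189-86339366, 38777 bp into the gene, had a peak in both P8 and no P0 library, with fold enrichments of 3.38 and 3.04 and 23 and 21 tags.

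At Timp2, 2 sites were higher at P8 and 0 lower, with limma on scaled pileup. Upstream of its start, chr11:118365239-118365501 had 19.3 and 17.5 scaled tags at P0 and 28.6 and 29.2 at P8 (0.62 ± 0.17, SE, adjusted p = 0.0132), and chr11:118362961-118363589 had 41.5 and 39.4 against 50.7 and 52.5 (0.34 ± 0.12, SE, adjusted p = 0.0479). Neither passed under the other 3 scalings or without either P0 library. The first had 0.23 by median pileup, 0.26 on fold enrichment and 0.40 by genome background, and the second -0.06, 0.016 and 0.11. The second also lost its call when either P8 library was left out. Of the 13 Timp2 sites tested, 11 had a difference above 0, where the median of all sites was -0.01. Both P8 libraries lay above both P0 at 5 of the 7 upstream sites, against 30.6% of all sites. The signs of the 13 were not counted under median pileup, fold enrichment or genome background, which moved the median of all sites to -0.40, -0.18 and -0.24. The start itself, chr11:118354629-118355610, had 28.9 and 26.3 against 26.0 and 26.8 (-0.06, adjusted p = 0.823). Timp2 also had 2 sites in its body with a peak in both P0 and no P8 library, with fold enrichments from 4.47 to 5.67, and its site of highest fold enrichment, at the start of Usp36, had scaled pileups of 51.2 and 57.8 against 59.8 and 51.4 (adjusted p = 0.903).

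Timp1, on chromosome X inside Syn1, had a start site, chrX:20869879-20870444, with 35.6 and 33.3 scaled tags at P0 and 40.3 and 35.0 at P8. Its difference of 0.12 ± 0.14 (SE, adjusted p = 0.559) did not pass and fell below 0 under each of the other scalings. A broad site 6219 bp upstream, chrX:20863129-20863947, was lower at P8, with 54.1 and 42.9 against 26.0 and 33.8 (-0.68 ± 0.15, SE, adjusted p = 0.00289), and 2 neighbours of it had a peak in both P0 and no P8 library, with fold enrichments from 2.84 to 3.62. On fold enrichment the difference of the broad site was -0.13 and did not pass. Near the far edge of the window, chrX:20922014-20922206 had a peak in both P8 and no P0 library, with 10 and 14 tags. The highest fold enrichments lay inside Araf, with 14.9 and 16.0 at P0 and 8.90 and 14.1 at P8, and went with a pileup difference of -0.07 (adjusted p = 0.806).

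**Figure D5:**
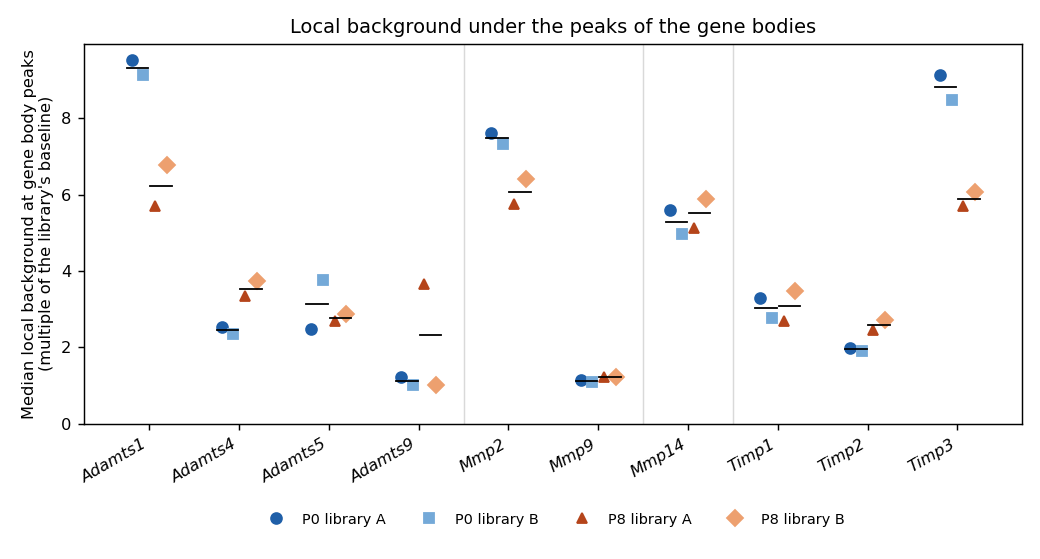
Median local background under the peaks of each gene body (y axis, as a multiple of the library's baseline) for the 10 genes (x axis), with a symbol for each library and a black bar at the mean of a passage. Adamts1 and Timp3 stand highest at P0, near 9 times the baseline, Mmp2 follows at 7.61 and 7.34, and all 3 are lower at P8, while Mmp9 stays near the baseline.

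The local background itself, which the peak caller estimates from the surrounding tags, lay far above the baseline over some of these genes, where all genes with a body peak in every library had medians from 1.66 to 1.84 times the baseline. Over Adamts1 its median at the gene body peaks was 9.52 and 9.12 times the baseline at P0 and 5.69 and 6.78 times at P8, and over Mmp2 7.61 and 7.34 against 5.75 and 6.40. With Timp3, these were the 3 of the 10 genes whose P0 libraries both lay above both P8 libraries, an order seen in 46.4% of all such genes. In another 3, Adamts4, Mmp9 and Timp2, both P8 libraries lay above both P0, against 18.6% of all such genes. Adamts4 had 2.54 and 2.34 at P0 against 3.34 and 3.73 at P8, but from 2 body peaks in each P0 library and 1 in each P8 library. The highest background at its body peaks was 3.99 and 3.68 at P0 against 3.34 and 3.73 at P8, so there the passages overlapped. Mmp14 was high in both passages, with 5.60 and 4.97 against 5.14 and 5.88. The number of gene body peaks behind these medians ranged down to 1, as in Mmp9, and no test was run.

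The 24 sites with a peak in both P0 and no P8 library were described beside those open throughout. Their mean fold enrichment had a median of 4.86 (range 2.29 to 8.51) against 6.65 (3.15 to 13.5) at the 83 sites open in all 4 libraries, and their mean length a median of 155 bp against 347 bp. They came from 2 libraries rather than 4, and no test was run.

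The wider pathway was described by 45 other genes. The lower P0 library had more peaks than the higher P8 library in 26 of the 45 windows, against the 48.3% of all genes, and both P8 libraries more than both P0 in 1, against 3.95%. Some of these windows overlap, as do those of Adamts8 and Adamts15 and of neighbouring Mmp genes on chromosome 9, so the 45 are not separate counts. The 26 comprised 8 of 14 further ADAMTS genes, 9 of 18 further Mmp genes, 7 of 9 genes of inhibition, activation and clearance, and 2 of 4 genes of proteoglycan substrates. The median ratio of the windows (1 added to both means) was 1.34 for the 45 genes, 1.17 for the 10 members and 1.26 for all genes.

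The largest ratios were those of Vcan, which encodes the proteoglycan versican, with 22 and 18 peaks at P0 and 6 and 9 at P8, of Adamts17 with 35 and 27 against 12 and 12, and of A2m, which encodes a broad protease inhibitor of plasma, with 10 and 9 against 3 and 4. Mmp19 was the gene with the opposite order, with 12 and 10 peaks at P0 and 13 and 13 at P8. Mmp13, the main collagenase of cartilage, had 6 and 5 peaks in either passage, and Acan, the substrate of the aggrecanases, 37 and 21 against 13 and 21.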

How the data were processed

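ATAC-seq peaks were analysed for 2 libraries each of P0 and P8 chondrocytes. Per the labels and methods, alignment by the authors used Bowtie2 on paired-end reads, and MACS2 with its default settings gave the peaks of every library separately. The submitters' processing notes name mm10, and tool versions were not given in the sources used here. Deposited peak tables held the signal at the summit (tags, not scaled for depth), the fold enrichment over local background (a ratio) and -log10 p and q values. Both libraries of a passage shared a table and were told apart by the peak name prefix. They are called A and B because the prefix does not match a library title. The authors' table of fold changes, p-values and FDR between the passages was not used, and 0 columns of per-sample values were left unused. Read depth was unknown, so no counting interval is given.

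Gene positions and starts came from RefSeq tables of GRCm38, the assembly of mm10. For the 4 members without a strand there, both gene ends were taken. Windows reached 50 kb beyond the gene, overlapping peaks of at least 1 bp were merged, and local background was recomputed as (pileup + 1)/fold enrichment - 1. In each library the highest summit of a site was taken, its pileup divided by the library's median ratio to the geometric mean of the libraries, and log2(value + 1) tested with limma 3.58.1 (variance trend on) in R 4.3.3 with Benjamini-Hochberg adjustment. Single values were compared by two-sided exact permutation tests in scipy 1.17.1. Merging of peaks, the libraries of a site and window counts were checked on simulated peaks. The limma step was checked on simulated pileups with planted changes larger than any seen at the window sites. Smaller changes and the other steps were not checked in this way. Named for each gene were the start site, the site of highest fold enrichment, up to 3 sites in both libraries of one passage only, and sites past an adjusted p of 0.05, and for the pathway lists 3 genes in either direction. Acan and Mmp13 were named after their values were seen. Members and lists were chosen with earlier results of these data known. Alternatives were windows of 10 and 100 kb, nearest-gene peaks, equal peak numbers, a -log10 q of at least 5, a matched background, other scalings, a pseudocount of 5 and leaving out libraries. In the Adamts4 window, 1 site is counted but not described.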

Additional observations from a re-analysis of the deposited data

How the results depend on the processing

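No paired analysis was possible because the peak names carry no replicate number that the passages share. Over the 10 windows, the P0/P8 ratio of peaks reversed to 0.947 with the same number of peaks per library. That setting also gave 0 members with both P0 above both P8 and 5 the other way, 11 sites in both P0 and no P8, 10 in both P8 and no P0, and 11 and 7 pathway genes. It fixes the number of peaks by construction. The shares of all genes and of all merged sites given above belong to the main setting. None were computed under this setting or the others of this paragraph, so the 5 members have no share beside them. With 10 kb windows, sites numbered 48 (all 4 libraries), 15 (both P0, no P8) and 1 (both P8, no P0), and with nearest-gene peaks 41, 14 and 1. Members with both P0 above both P8 numbered 6 in either of these settings, for which no share of all genes was computed. A reciprocal overlap of 50% gave 38 and 8 sites of the last 2 kinds. Pathway genes with P8 above were 0 with windows of 10 and 100 kb. Leaving out each library in turn gave ratios of 1.16 to 1.40, covered length ratios of 1.38 to 1.69, 83 to 100 sites in all 4 libraries, 29 to 52 in P0 and no P8 (52 without P0 library B), 3 to 12 in P8 and no P0, 4 to 9 members and 27 to 40 pathway genes with P0 above (9 and 40 without P0 library B), and 0 to 1 members and 1 to 3 pathway genes with P8 above. Sites called lower ranged from 0 to 13 and higher from 0 to 7. Other scalings gave 41 lower and 0 higher (median pileup), 0 higher (fold enrichment) and 19 lower and 1 higher (genome background). The numbers over all sites under each of these scalings stand above with the limma results. Genome background, like the pathway alternatives, was chosen after seeing the data. Reversed were the Mmp14 start (0.075 without P8 library A), the Timp2 start (0.0076 without P0 library A), the Timp1 start (-0.28, -0.12 and -0.11 by median pileup, fold enrichment and genome background) and the Timp2 site at 118362961 (-0.060 by median pileup). The cause was not tested. Of the values for named sites, 105 kept direction and side of the threshold, 47 lost the call and 3 gained it.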
